A study of Mus musculus with 6 samples.

Results

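The 37 genes described here encode the factors of translation initiation other than the core of eIF3: 7 outer subunits of eIF3, 4 factors of start codon selection, 3 subunits of eIF2, 5 subunits of eIF2B, 3 eIF4E cap-binding proteins, 3 eIF4G scaffolds, 5 eIF4A helicases and cofactors, 3 factors of subunit joining with eIF5A, 2 4E-binding proteins and 2 poly(A)-binding proteins. They were chosen by name from 27179 gene identifiers counted in mouse germinal vesicle (GV) oocytes, which are full-grown oocytes arrested in prophase of meiosis. No measured value was a criterion, but the choice was made with earlier results of these data known. All 37 names matched an identifier, and all 37 were among the 14957 genes with enough counts to be tested. The oocytes came from a Prdm10 maternal knockout and from wildtype, with 3 libraries each. In the knockout, Zp3-cre, whose promoter is active in growing oocytes, deleted the floxed exon 5 of Prdm10, a zinc finger gene of the PRDM family. The wildtype oocytes are labelled by that word alone. The labels do not say whether they carried floxed alleles or Cre, and the age and strain of the mice were not stated. Each library was made from RNA of a pool of about 10 oocytes, so a value is an average over a pool.

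In translation initiation, eIF2 carries the initiator tRNA to the small ribosomal subunit, and eIF2B recharges eIF2 with GTP. The eIF4E protein binds the cap of the mRNA, eIF4G bridges eIF4E, the eIF4A helicase and the poly(A)-binding protein, and eIF3 links that assembly to the small subunit, which scans for the start codon before the large subunit joins. The full-grown oocyte is largely silent in transcription and holds a store of mRNAs whose translation is set by their caps and tails, and mammalian oocytes express their own forms of eIF4E and of the poly(A)-binding protein, encoded in the mouse by Eif4e1b and Pabpc1l.

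With all 6 libraries 1 of the 37 mRNAs differed between the genotypes at an adjusted p under 0.05, where 11.2% of all tested genes did. Without wildtype replicate 1, which stood apart from the other libraries, 11 of the 37 did, where 34.4% of all tested genes did. The 150 bases before the annotated start of 7 of those 11 genes are given here, so that the motifs each of them holds can be read beside the direction of its mRNA. They are RefSeq sequences on GRCm38.p6, written 5′ to 3′ on the strand of the gene, with matches to a searched motif in capitals.
Eif4h: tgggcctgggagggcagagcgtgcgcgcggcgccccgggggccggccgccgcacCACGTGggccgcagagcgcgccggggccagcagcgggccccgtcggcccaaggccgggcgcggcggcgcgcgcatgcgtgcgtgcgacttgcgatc
Eif3k: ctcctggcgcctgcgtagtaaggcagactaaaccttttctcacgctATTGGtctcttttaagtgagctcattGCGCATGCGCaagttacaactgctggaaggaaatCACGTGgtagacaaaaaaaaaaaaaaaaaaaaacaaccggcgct
Eif4g1: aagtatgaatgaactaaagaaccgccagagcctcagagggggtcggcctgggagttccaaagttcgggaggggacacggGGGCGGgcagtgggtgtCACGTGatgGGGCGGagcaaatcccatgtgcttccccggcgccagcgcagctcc
Eif4a1: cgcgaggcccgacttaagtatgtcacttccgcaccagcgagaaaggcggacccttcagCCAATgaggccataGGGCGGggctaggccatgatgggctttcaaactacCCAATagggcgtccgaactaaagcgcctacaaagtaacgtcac
Eif2b5: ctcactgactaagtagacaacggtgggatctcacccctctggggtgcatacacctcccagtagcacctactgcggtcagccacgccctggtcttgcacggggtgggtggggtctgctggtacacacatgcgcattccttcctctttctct
Eif4a2: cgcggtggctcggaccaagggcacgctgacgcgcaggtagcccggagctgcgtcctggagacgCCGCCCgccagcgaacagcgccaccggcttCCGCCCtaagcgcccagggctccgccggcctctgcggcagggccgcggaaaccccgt
Eif2b4: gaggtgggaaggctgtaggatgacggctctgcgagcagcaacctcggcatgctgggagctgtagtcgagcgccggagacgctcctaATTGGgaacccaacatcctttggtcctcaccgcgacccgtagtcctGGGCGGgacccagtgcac
The first 5 belong to genes called higher in knockout oocytes and the last 2 to genes called lower, in the fit without wildtype replicate 1. They lie at chr5:134639410-134639559 on the minus strand for Eif4h, chr7:28981889-28982038 on the minus strand for Eif3k, chr16:20672577-20672726 on the plus strand for Eif4g1, chr11:69672424-69672573 on the minus strand for Eif4a1, chr16:20498667-20498816 on the plus strand for Eif2b5, chr16:23107318-23107467 on the plus strand for Eif4a2, and chr5:31193140-31193289 on the minus strand for Eif2b4.

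The motifs, searched on both strands, were the E-box CACGTG bound by MYC and TFE factors, the ETS motif CCGGAAG, the NRF1 motif (GCGC, any base, then TGCGC), the GC box GGGCGG, the CCAAT box CCAAT and the YY1 motif AAGATGGC. Matches of different motifs overlapped in 0 windows. A RefSeq entry was at hand for 29 of the 37 genes, and not for Eif3e, Eif3h, Eif2b3, Eif4e1b, Eif4g2, Eif6, Eif4ebp1 and Pabpc1. The 29 genes had 38 windows, since some have several. A gene was counted once if any of its windows held the motif, so genes with several windows had more chances of a match. Each of the 7 genes printed above has a single window. The E-box stood in 7 of the 29 genes (24.1%): Eif3f, Eif3k, Eif1b, Eif4e, Eif4g1, Eif4h and Eif5a. It stood in 4.92% of all 27025 genes with an entry and in 6.94% of 11548 tested genes. The ETS motif also stood in 7 (24.1%, against 6.33% of all genes and 11.9% of tested genes), the NRF1 motif in 4 (13.8%, against 3.55% and 7.27%), the GC box in 19 (65.5%, against 31.3% and 53.9%), the CCAAT box in 9 (31.0%, against 27.7% and 31.4%) and the YY1 motif in 0 (against 1.02% and 1.43%).

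Sorted by the calls made without wildtype replicate 1, the E-box was in 5 of 7 genes called higher (Eif3k, Eif4e, Eif4g1, Eif4h and Eif5a). It was in 0 of 3 genes called lower and in 2 of 19 of the rest (Eif1b and Eif3f). Of those 5, the windows of Eif4e and Eif5a are not printed above. Over all tested genes the same shares were 10.0% of 1977 called higher, 5.61% of 2051 called lower and 6.46% of those not called. Other motifs were also unevenly spread over these few factors: the NRF1 motif was in 3 of 7 higher, 0 of 3 lower and 1 of 19 of the rest, the CCAAT box in 4 of 7, 1 of 3 and 4 of 19, the GC box in 3 of 7, 2 of 3 and 14 of 19, and the ETS motif in 1 of 7, 0 of 3 and 6 of 19. Over all tested genes called higher, called lower and not called, the NRF1 shares were 6.63%, 7.8% and 7.24%. In the same order they were 32.5%, 30.7% and 31.3% for the CCAAT box and 53.9%, 51.3% and 54.3% for the GC box. For the ETS motif they were 10.4%, 10.7% and 12.4%. With the calls from all 6 libraries there was no such sorting to make among the factors. Eif4h, with the E-box, was the 1 gene called higher, 0 were called lower, and 6 of the other 28 genes (21.4%) held the E-box. For those calls the shares over all tested genes were 11% of 675 higher, 5.22% of 594 lower and 6.77% of 10279 not called. The motifs and this sorting were chosen after the values had been seen, so the counts are descriptions. The base composition of the windows moved with the sorting as well: the median GC content was 58.7% for the factors called higher, 68.7% for those called lower and 66.7% for the rest. Its part in the motif counts was not tested.

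Library totals were between 33698776 and 37966868 counts in knockout and between 22492228 and 38831227 in wildtype. Prdm10 was at 2.80, 3.82 and 3.05 CPM (counts scaled to the size of each library) in knockout libraries, against 10.4, 23.1 and 23 CPM in wildtype. The log2 fold change was -2.54, with SE 0.325 and an adjusted p of 0.00436 (edgeR's quasi-likelihood test, Benjamini-Hochberg adjustment over all tested genes). The 11 oocyte markers summed to between 26365.1 and 28083.9 CPM in knockout and between 23193.4 and 27786.7 CPM in wildtype. Markers of granulosa and cumulus cells summed to between 78.7 and 90.8 CPM in knockout and between 85.0 and 94.5 CPM in wildtype, and markers of theca and stroma summed to between 5.42 and 17.5 CPM in knockout and between 4.16 and 20.3 CPM in wildtype. Markers of blood, immune and endothelial cells were the list whose sum did not overlap between the genotypes, at 114 to 117 CPM in knockout and 34.4 to 77.4 CPM in wildtype. That sum was mostly Pecam1, and of the defining markers Adgre1, Cdh5 and Hba-a1 had under 3 counts in every library. Of these marker lists 2 genes were called, both higher in knockout. The macrophage marker Cd68 was at 10.3, 11 and 10.4 CPM in knockout, against 3.63, 1.43 and 1.24 CPM in wildtype (log2 fold change 2.28, adjusted p = 0.0108, and 2.98 without wildtype replicate 1). The cumulus gene Ptgs2 was at 2.18, 3.26 and 3.15 CPM in knockout, against 0.528, 1.27 and 1.42 CPM in wildtype (1.47, adjusted p = 0.0446, and 1.10 without wildtype replicate 1). Their part in the results below was not tested. Wildtype replicate 1 had a Spearman correlation over tested genes of 0.975 to 0.976 with the other wildtype libraries, which reached 0.996 with each other, and the knockout libraries reached 0.995 to 0.997 among themselves. It was the highest or the lowest of the 6 libraries for 31 of the 37 initiation factor mRNAs, highest for 19 and lowest for 12, and for 66.7% of all tested genes. The fold changes below are therefore given with it and without it.

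Most initiation factor mRNAs were abundant in the oocyte. Levels of different genes are compared as CPM per kilobase of the longest protein-coding transcript, and 13820 tested genes had such a length. The level ran between 0.953 CPM per kilobase (Eif2s3x) and 405 (Eif1b) in knockout, and between 1.14 and 456 for the same genes in wildtype. By the wildtype level, 17 of the 37 lay above the 90th percentile of tested genes and 32 above the median, and their median percentile was 89.4. The 5 below the median were Eif2s3x, Eif4ebp2, Eif4ebp1, Pabpc1 and Eif2b5. The 37 mRNAs together summed to 3055.4 ± 98.9 CPM per kilobase in knockout and 3084.6 ± 146 in wildtype (SD, n = 3 each), or 3001 over wildtype replicates 2 and 3, and the ranges overlapped. In bulk libraries from pools, fewer RNA molecules per oocyte and fewer oocytes that hold them cannot be told apart.

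**Figure D1:**
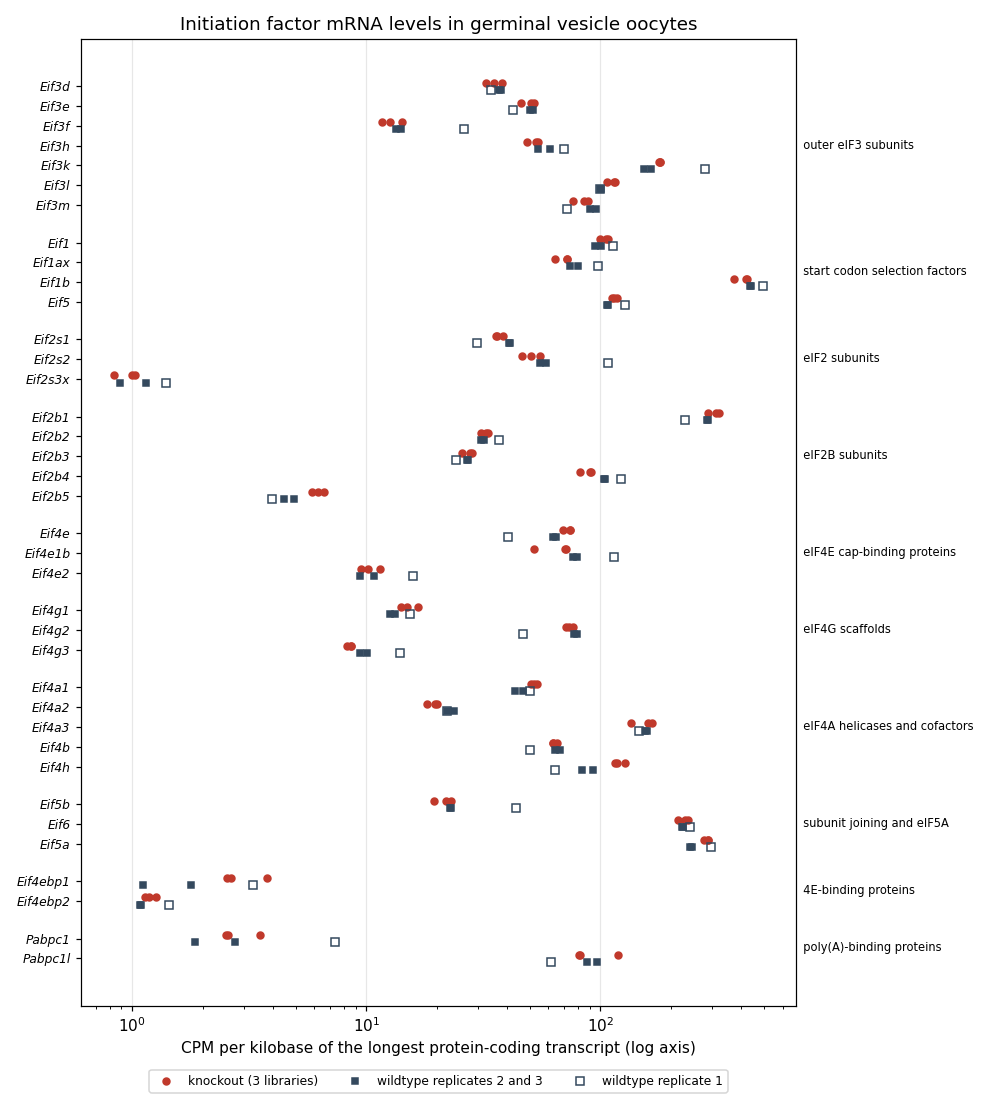
Level of each of the 37 initiation factor mRNAs in every library, as CPM per kilobase on a log axis, grouped by factor class; circles are knockout libraries, filled squares wildtype replicates 2 and 3, and the open square wildtype replicate 1. Levels span 0.953 to 405 in the knockout means, and the open square often lies outside the other libraries of a gene.

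The comparison of knockout with wildtype asks whether oocytes without Prdm10 hold other amounts of these mRNAs. One mRNA passed the test with all 6 libraries: Eif4h was higher in knockout, and 0 of the 37 were lower, where 5.87% of all tested genes were called higher and 5.34% lower. The log2 fold changes of the 37 ran between -0.55 and 0.58 with a median of -0.01, and the median over all tested genes was -0.00. The median size of the change, whatever its sign, was 0.17 for the 37 and 0.30 for all tested genes. Among genes with at least 5 CPM in 3 libraries the gap was smaller, 0.19 for the 36 factors kept and 0.26 for all genes. An unadjusted p under 0.05 was reached by 5 of the 37, and by 28.8% of all tested genes. For 13 of the 37 (35.1%) the genotypes' libraries did not overlap, 6 higher and 7 lower in knockout, where 40.2% of all tested genes did not overlap (21.0% higher, 19.2% lower). The 95% interval of the change stayed inside 2-fold in either direction for 32 of the 37. The other 5, whose intervals reached past 2-fold, were Eif3f, Eif2s2, Eif5b, Eif4ebp1 and Pabpc1.

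Without wildtype replicate 1, 11 of the 37 were called, 8 higher (Eif3k, Eif2b5, Eif4e, Eif4g1, Eif4a1, Eif4h, Eif5a and Eif4ebp1) and 3 lower (Eif2b4, Eif4g3 and Eif4a2). Of all genes tested in that fit, 16.7% were called higher and 17.7% lower. Their log2 fold changes then ran between -0.27 and 1.05 with a median of 0.01. The smallest of the 11 changes was that of Eif3k, 0.17 on the log2 scale. With all 6 libraries Eif4h alone was called under size factors of DESeq2, library totals, upper quartile scaling, a stricter filter, no filter and limma-voom, where 11.3%, 10.1%, 10.5%, 10.5%, 7.52% and 11.1% of all genes were called. DESeq2 called 2 of the 37 (Eif2b5 and Eif4h, both higher), where it called 15.3% of all genes it tested. Limma-voom with sample quality weights, which gives a deviating library less weight, called 10 (7 higher and 3 lower), where it called 39.8% of all genes (19.5% higher and 20.3% lower). Of those 10, Eif3l alone was not among the 11. With the replicate number as a block, 0 of the 37 were called in edgeR, 4 had an unadjusted p under 0.05, and 3.59% of all genes were called. Leaving out knockout replicate 1, 2 or 3 also gave 0 calls among the 37 (2 unadjusted in each fit), where 2.48%, 2.35% and 2.64% of all genes were called. Leaving out wildtype replicate 2 or 3 gave 0 calls too (8 unadjusted in each fit), where 5.9% and 6.02% of all genes were called.

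**Figure D2:**
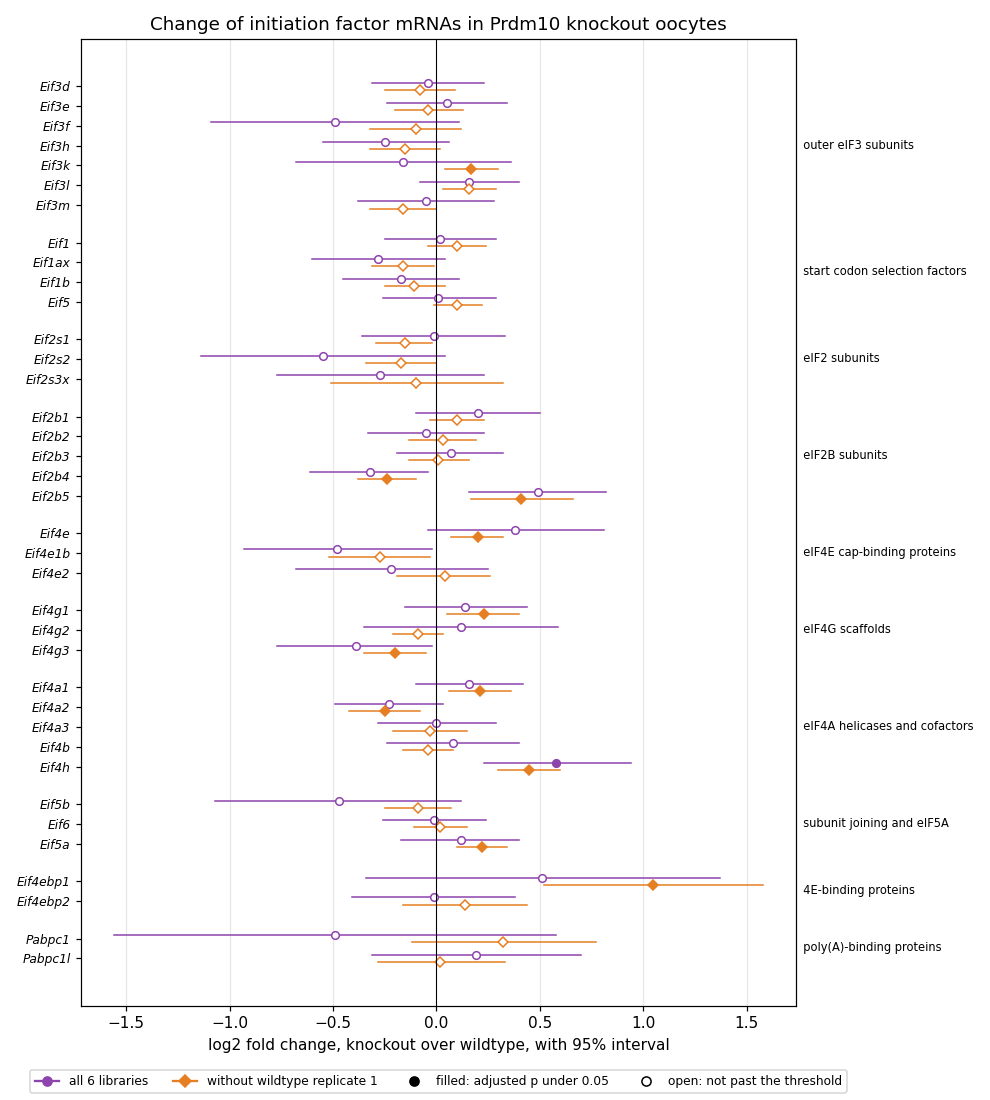
Log2 fold change of each initiation factor mRNA, knockout over wildtype, with its 95% interval, from all 6 libraries (circles) and without wildtype replicate 1 (diamonds); filled symbols have an adjusted p under 0.05. With all 6 libraries only Eif4h is filled, and without wildtype replicate 1 there are 11 filled symbols, of which the one farthest from no change is Eif4ebp1, at 1.05.

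Among the factors that unwind the leader of the mRNA, the knockout had more Eif4h mRNA. Its protein, eIF4H, stimulates the helicase eIF4A. Eif4h was at 322, 347 and 314 CPM in knockout libraries, against 175, 227 and 254 CPM in wildtype libraries. Every knockout library stood above every wildtype library, and wildtype replicate 1 was the lowest. The means were 328 ± 16.9 CPM in knockout and 218 ± 40.2 CPM in wildtype (SD, n = 3 each), 1.5-fold higher in knockout (log2 fold change 0.58, SE 0.155, 95% interval 0.23 to 0.94, adjusted p = 0.0496, edgeR). The adjusted p lay just under the threshold, and it was between 0.0556 and 0.18 when any library other than wildtype replicate 1 was left out. Without wildtype replicate 1 the log2 fold change was 0.45 (SE 0.0681, adjusted p = 0.000553). Eif4h has no near-identical transcript elsewhere in the annotation and overlaps no other counted gene.

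The helicase itself is encoded by 2 close paralogs, Eif4a1 and Eif4a2. Eif4a1 was at 89.5, 95.1 and 92.2 CPM in knockout, against 88.9, 76.3 and 83.2 CPM in wildtype, and Eif4a2 was at 49.0, 54.1 and 53.4 CPM in knockout, against 59.9, 59.7 and 64.2 CPM in wildtype. Neither gene's libraries overlapped between the genotypes, Eif4a1 standing higher and Eif4a2 lower in knockout, but with all 6 libraries neither passed the test (log2 fold changes 0.16 and -0.23, adjusted p = 0.39 and 0.216). Without wildtype replicate 1 Eif4a1 rose by a log2 fold change of 0.21 (adjusted p = 0.0327) and Eif4a2 changed by -0.25 (adjusted p = 0.028). The ratio of Eif4a1 to Eif4a2, per kilobase, was 2.79, 2.68 and 2.64 in knockout libraries, against 2.27, 1.95 and 1.98 in wildtype libraries. That all 3 knockout libraries lay above all 3 wildtype libraries follows from the separation of both genes and adds nothing to it. With 3 libraries against 3, an exact test cannot go below p = 0.1, so no test of the ratio is given. Eif4a2 overlaps Rfc4 and the small RNA genes Snora81 and Snord2, and no source used here gives the strand setting of the counting. Eif4a1 has 3 near-identical pseudogenes and Eif4a2 has 1, none of them among the counted genes, so their levels carry that uncertainty too.

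Eif4a3, whose protein sits in the exon junction complex, had the highest level of this class per kilobase, 153 CPM per kilobase in each genotype. Its libraries were at 203, 250 and 240 CPM in knockout, against 220, 238 and 233 CPM in wildtype (log2 fold change 0.00, adjusted p = 0.991, and -0.03 without wildtype replicate 1), and it shares near-identical sequence with copies such as Gm5576, which held 22.7 to 28.1 CPM in knockout and 25.5 to 27.9 CPM in wildtype. Eif4b, the other cofactor of eIF4A, averaged 245 CPM in knockout and 232 CPM in wildtype (log2 fold change 0.08, adjusted p = 0.735, and -0.04 without wildtype replicate 1). The class summed to 386, 430 and 409 CPM per kilobase in knockout libraries, against 332, 370 and 385 in wildtype libraries. The genotypes did not overlap, but the knockout library lowest in the class and the highest wildtype library were 386 and 385. The log2 ratio of the means was 0.17, and 0.11 without wildtype replicate 1. Eif4h was 29.5% of the class sum in knockout and 22.0% in wildtype.

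**Figure D3:**
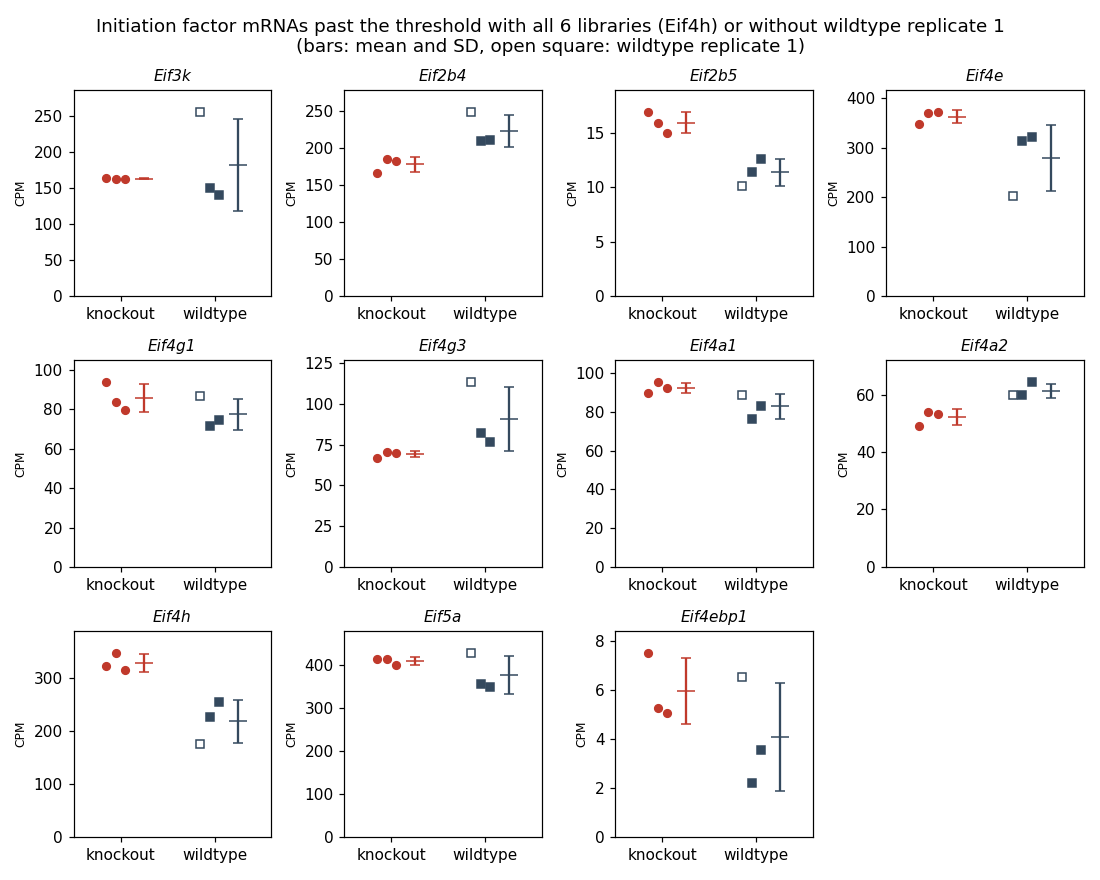
CPM in each library of the 11 mRNAs that passed the threshold without wildtype replicate 1, among them Eif4h, which passed it with all 6 libraries; each panel starts at 0, circles are knockout libraries, squares wildtype libraries (open for replicate 1), and bars give mean and SD (n = 3). For Eif4h, Eif2b5, Eif4e, Eif4a1, Eif2b4, Eif4g3 and Eif4a2 no knockout library overlaps a wildtype library, while for Eif3k, Eif4g1, Eif5a and Eif4ebp1 the open square lies among or beyond the knockout libraries.

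Among the cap-binding proteins, the general and the oocyte form leaned in opposite directions, without a call for either with all 6 libraries. Eif4e, which encodes the general cap-binding protein, was at 347, 370 and 372 CPM in knockout, against 202, 313 and 322 CPM in wildtype. Eif4e1b, the oocyte and early embryo form, was at 111, 150 and 152 CPM in knockout, against 243, 170 and 163 CPM in wildtype. All knockout libraries were above all wildtype libraries for Eif4e and below them for Eif4e1b, and wildtype replicate 1 was the extreme library for both. Of all tested genes, 40.2% showed no overlap between the genotypes. Neither passed the test with all 6 libraries: the log2 fold change was 0.38 (SE 0.184, adjusted p = 0.213) for Eif4e and -0.48 (SE 0.197, adjusted p = 0.157) for Eif4e1b. Without wildtype replicate 1, Eif4e rose by 0.20 (adjusted p = 0.0201), and Eif4e1b stood at -0.27 and did not pass (adjusted p = 0.0817).

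Within each library the ratio of Eif4e1b to Eif4e, per kilobase, was 0.749, 0.947 and 0.958 in knockout, against 2.82, 1.27 and 1.18 in wildtype. With these lengths the ratio was below 1 in every knockout library and above 1 in every wildtype library. The separation of the genotypes in this ratio follows from that of both genes, given above, and adds nothing to it. Which side of 1 a library falls on depends on the transcript lengths used. With the mean length of each gene's transcripts the averages were 0.638 in knockout and 1.27 in wildtype. That wildtype average was above 1 through replicate 1 alone, since the ratios of wildtype replicates 2 and 3 then fall below 1. Eif4e1b was 43.5 ± 3.30% of the class sum in knockout and 56.6 ± 9.04% in wildtype (SD, n = 3 each), or 51.4% over wildtype replicates 2 and 3. Eif4e2, which encodes 4EHP, a cap-binding protein that does not bind eIF4G, averaged 35.9 ± 3.42 CPM in knockout and 41.6 ± 11.7 CPM in wildtype (log2 fold change -0.22, adjusted p = 0.508, and 0.04 without wildtype replicate 1). The class summed to 148 ± 14.3 CPM per kilobase in knockout and 158 ± 10.7 in wildtype, with overlap, and 152 over wildtype replicates 2 and 3. It leaves out the paralog Eif4e3, which alone was at 143 ± 8.06 CPM per kilobase in knockout and 203 ± 43.6 in wildtype, without overlap. The shares, the sum and its overlap therefore hold for the 3 listed genes and not for all eIF4E paralogs. Eif4e overlaps the microRNA gene Mir1956. Both Eif4e and Eif4e1b have 1 near-identical pseudogene that is not among the counted genes.

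**Figure D4:**
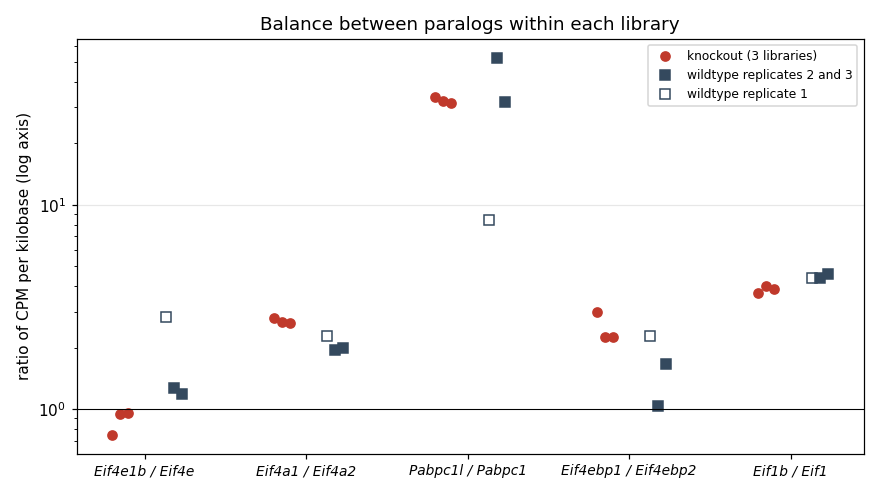
Ratio of CPM per kilobase between paralogs within each library, on a log axis with a line at 1; circles are knockout libraries, filled squares wildtype replicates 2 and 3, and the open square wildtype replicate 1. The genotypes do not overlap for Eif4e1b over Eif4e (lower in knockout), Eif4a1 over Eif4a2 (higher) and Eif1b over Eif1 (lower), and they overlap for the other 2 pairs. Eif1b over Eif1 was added to the pairs first listed. Eif4g2 over Eif4g1, also computed but not shown, overlaps (4.59 to 5.23 in knockout, 3.03 to 6.07 in wildtype). The share of other gene pairs whose ratio separates was not computed.

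The 4E-binding proteins, which hold eIF4E away from eIF4G until the mTOR kinase phosphorylates them, had low mRNA levels. Eif4ebp1 was at 7.52, 5.29 and 5.09 CPM in knockout, against 6.53, 2.23 and 3.57 CPM in wildtype, where replicate 1 lay among the knockout libraries. The log2 fold change was 0.51 (SE 0.37, adjusted p = 0.388) with all 6 libraries and 1.05 (SE 0.242, adjusted p = 0.00649) without wildtype replicate 1, the largest of the 37 in that fit. Eif4ebp2 averaged 6.90 ± 0.377 CPM in knockout and 6.94 ± 1.19 CPM in wildtype (SD, n = 3 each), with a log2 fold change of -0.01, or 0.14 without wildtype replicate 1 (adjusted p = 0.967 and 0.451). Its libraries were at 7.31, 6.81 and 6.57 CPM in knockout and 8.31, 6.28 and 6.22 CPM in wildtype. The ratio of Eif4ebp1 to Eif4ebp2 per kilobase was 2.98, 2.25 and 2.24 in knockout and 2.28, 1.03 and 1.66 in wildtype, and replicate 1 of wildtype lay within the knockout range.

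None of the 3 eIF4G scaffold mRNAs passed the edgeR test with all 6 libraries. Eif4g2, which encodes DAP5, an eIF4G relative without the eIF4E-binding part, had the highest level per kilobase of the 3. It was at 609, 568 and 588 CPM in knockout, against 372, 615 and 636 CPM in wildtype, so the sign of its difference hung on replicate 1 (log2 fold change 0.12 with it, -0.09 without it, adjusted p = 0.72 and 0.213). Eif4g3, which encodes the scaffold eIF4GII, was at 67.0, 70.3 and 69.8 CPM in knockout, against 113, 82.1 and 76.5 CPM in wildtype. All knockout libraries were below all wildtype libraries (log2 fold change -0.39, adjusted p = 0.159), and without wildtype replicate 1 it was called lower at -0.20 (adjusted p = 0.0385). Eif4g1, the main scaffold of cap-dependent initiation in somatic cells, was at 93.6, 83.9 and 79.4 CPM in knockout, against 86.5, 71.5 and 74.6 CPM in wildtype. Its value was 0.14 on the log2 scale (adjusted p = 0.488), and without wildtype replicate 1 it was called higher at 0.23 (adjusted p = 0.0437). Eif4g1 overlaps the small RNA gene Snord66. The class summed to 97.3 ± 3.31 CPM per kilobase in knockout and 92.6 ± 14.6 in wildtype, or 101 over wildtype replicates 2 and 3.

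Of the 2 poly(A)-binding protein genes in this class, the oocyte form held nearly the whole sum in both genotypes. The class leaves out Pabpc4, at 21.5 CPM per kilobase in knockout and 19.9 in wildtype. Pabpc1 stood at 2.87 and 3.98 and Pabpc1l at 93.9 and 82.1, so the shares hold for these 2 genes only. Pabpc1l was 97.0 ± 0.102% of the class sum in knockout and 94.8 ± 4.76% in wildtype (SD, n = 3 each), and 97.5% over wildtype replicates 2 and 3. It was at 281, 191 and 192 CPM in knockout, against 145, 228 and 207 CPM in wildtype, with overlap (log2 fold change 0.19, adjusted p = 0.585, and 0.02 without wildtype replicate 1). Pabpc1, the general somatic form, was at 9.93, 7.08 and 7.26 CPM in knockout, against 20.7, 5.20 and 7.78 CPM in wildtype. Its log2 fold change was -0.49 with all 6 libraries and 0.32 without wildtype replicate 1, and it passed the test in neither (adjusted p = 0.512 and 0.238). The ratio of Pabpc1l to Pabpc1 per kilobase was 33.8, 32.3 and 31.6 in knockout and 8.40, 52.5 and 31.8 in wildtype. Pabpc1 has 1 near-identical pseudogene that is not among the counted genes.

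In the eIF2B complex, the exchange factor that recharges eIF2, the catalytic subunit and a regulatory subunit stood in opposite directions. Eif2b5, which encodes the catalytic epsilon subunit, was at 16.9, 15.9 and 15 CPM in knockout, against 10.1, 11.4 and 12.6 CPM in wildtype, with no overlap. Its log2 fold change was 0.49 (SE 0.142, 95% interval 0.16 to 0.82), with an adjusted p of 0.0651 with all 6 libraries and, at a log2 fold change of 0.41, of 0.0152 without wildtype replicate 1. Eif2b4, the regulatory delta subunit, was at 166, 185 and 182 CPM in knockout, against 248, 209 and 211 CPM in wildtype, again with no overlap. Its log2 fold change was -0.32 (SE 0.122, adjusted p = 0.128), and without wildtype replicate 1 it was -0.24 (adjusted p = 0.0129). Eif2b1, the regulatory alpha subunit, had the highest level of the complex per kilobase and was at 583, 626 and 645 CPM in knockout, against 464, 574 and 579 CPM in wildtype (log2 fold change 0.20, adjusted p = 0.344, and 0.10 with 0.2 without wildtype replicate 1). Eif2b2 and Eif2b3, the beta and gamma subunits, had log2 fold changes of -0.05 and 0.07, or 0.03 and 0.01 without wildtype replicate 1, and passed in neither fit. Per kilobase the subunits were unequal: Eif2b1 made up 66.7% of the class sum in knockout and 60.5% in wildtype, and Eif2b5 1.36% in knockout and 1.01% in wildtype.

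None of the 3 mRNAs of the eIF2 subunits passed the edgeR test with all 6 libraries or without wildtype replicate 1. Eif2s2, the beta subunit, had the largest log2 fold change in size below 0 of the 37, -0.55 (SE 0.256, adjusted p = 0.199). It was at 118, 128 and 140 CPM in knockout, against 275, 149 and 140 CPM in wildtype, so the difference lay mostly in wildtype replicate 1, and without it the value was -0.17 (adjusted p = 0.103). Its near-identical copy Gm9892 was counted at 69.3, 75.2 and 81.6 CPM in knockout, against 121, 96.0 and 83.2 CPM in wildtype, so how reads were shared between them leaves the level of Eif2s2 uncertain. Eif2s1, the alpha subunit that the stress kinases phosphorylate, averaged 125 ± 5.29 CPM in knockout and 126 ± 22.0 CPM in wildtype (log2 fold change -0.01, adjusted p = 0.964, and -0.15 without wildtype replicate 1). Eif2s3x, the X-linked gene of the gamma subunit, was at 3.04, 3.63 and 3.76 CPM in knockout, against 5.09, 4.16 and 3.25 CPM in wildtype (log2 fold change -0.27, adjusted p = 0.438, and -0.10 without wildtype replicate 1), the lowest level per kilobase of the 37. Its near-identical copy Gm2223 was counted at 8.19, 7.83 and 9.43 CPM in knockout, against 2.55, 8.78 and 7.5 CPM in wildtype, more than Eif2s3x itself in 5 of 6 libraries, so the low level of Eif2s3x is uncertain too. The class summed to 83, 87.2 and 94.6 CPM per kilobase in knockout libraries, against 139, 101 and 96.4 in wildtype libraries, lower in every knockout library. The log2 ratio of the means was -0.35, and -0.16 without wildtype replicate 1.

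The start codon factors were led by Eif1b, the paralog of Eif1, whose proteins keep the scanning ribosome open until the start codon is found. Eif1b had the highest level per kilobase of the 37 in both genotypes and was at 384, 440 and 434 CPM in knockout, against 513, 454 and 449 CPM in wildtype. All knockout libraries were below all wildtype libraries, by a log2 fold change of -0.17, or -0.11 without wildtype replicate 1, that passed in neither fit (adjusted p = 0.378 and 0.23). The ratio of Eif1b to Eif1 per kilobase was 3.72, 4.02 and 3.89 in knockout, against 4.38, 4.37 and 4.57 in wildtype, lower in every knockout library. Eif1 has 13 near-identical transcripts elsewhere, 12 of them pseudogenes, so its level is uncertain. Eif1ax, which encodes the X-linked form of eIF1A, was at 330, 373 and 373 CPM in knockout, against 505, 416 and 383 CPM in wildtype (log2 fold change -0.28, adjusted p = 0.229, and -0.16 without wildtype replicate 1). Eif5, the GTPase activator of eIF2, averaged 465 ± 11.1 CPM in knockout and 462 ± 48.5 CPM in wildtype (log2 fold change 0.01, adjusted p = 0.958, and 0.10 without wildtype replicate 1). The 4 genes summed to 694 ± 39.1 CPM per kilobase in knockout and 757 ± 67.7 in wildtype (SD, n = 3 each), with overlap, and 718 over wildtype replicates 2 and 3.

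In the class of subunit joining and eIF5A, Eif5a was called without wildtype replicate 1. Its protein carries hypusine and aids elongation and termination. Eif5a was at 414, 415 and 399 CPM in knockout, against 428, 355 and 348 CPM in wildtype (log2 fold change 0.12, adjusted p = 0.547), and without wildtype replicate 1 it rose by 0.22 (adjusted p = 0.00789). Eif5b, the GTPase of subunit joining, was at 152, 171 and 179 CPM in knockout, against 341, 179 and 177 CPM in wildtype. Its log2 fold change was -0.47 with all 6 libraries and -0.09 without wildtype replicate 1 (adjusted p = 0.263 and 0.358). Eif6, which keeps the large subunit from joining early, averaged 341 ± 17.0 CPM in knockout and 344 ± 14.4 CPM in wildtype (log2 fold change -0.01, 95% interval -0.26 to 0.24, adjusted p = 0.955, and 0.02 without wildtype replicate 1).

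The 7 outer subunits of eIF3 gave 0 calls with all 6 libraries. Eif3k, a small peripheral subunit with the highest level of the class per kilobase, was at 164, 162 and 163 CPM in knockout, against 255, 150 and 140 CPM in wildtype. Its log2 fold change was -0.16 with all 6 libraries (adjusted p = 0.674) and 0.17 without wildtype replicate 1 (adjusted p = 0.0448), so its direction and its call both hung on that library. Eif3f had the largest change of the class, -0.49 (adjusted p = 0.259), at 31.7, 35.7 and 29.2 CPM in knockout, against 65.9, 33.7 and 35.4 CPM in wildtype, and stood at -0.10 without wildtype replicate 1. Eif3l, the partner of eIF3k in the complex, averaged 217 ± 9.25 CPM in knockout and 194 ± 1.38 CPM in wildtype with no overlap (log2 fold change 0.16 in both fits, adjusted p = 0.34, and 0.0599 without wildtype replicate 1). Eif3h averaged 67.4 CPM in knockout and 80.1 CPM in wildtype (log2 fold change -0.25, adjusted p = 0.254, and -0.15 without wildtype replicate 1). Eif3d, whose protein can bind caps itself, Eif3e and Eif3m had log2 fold changes between -0.05 and 0.05, and between -0.16 and -0.04 without wildtype replicate 1.

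Around these 37 genes, 56 other genes of translation were listed, of which 53 were tested: the core of eIF3, the eIF2 kinases and phosphatase subunits, other initiation factors, regulators of mRNA ends, and factors of elongation and termination. Of the 53, 2 were called with all 6 libraries, both lower in knockout (3.77%, against 11.2% of all tested genes). The median log2 fold change of the 53 was 0.05. Eif3b, a core subunit on which the eIF3 complex is built, was at 11.4, 9.11 and 8.21 CPM in knockout, against 59.5, 85.2 and 90.2 CPM in wildtype, 8.17-fold lower in knockout (log2 fold change -3.03, SE 0.212, adjusted p = 0.000337, edgeR, and -3.20 without wildtype replicate 1). Pabpn1l, an oocyte form of the nuclear poly(A)-binding protein, was at 201, 265 and 267 CPM in knockout, against 502, 534 and 556 CPM in wildtype, 2.17-fold lower in knockout (log2 fold change -1.12, SE 0.144, adjusted p = 0.00442, and -1.16 without wildtype replicate 1). Neither gene's libraries overlapped, and both were called under every alternative tried, also with each library left out. The changes of the 37 mRNAs, between -0.55 and 0.58, were thus all smaller than these 2. Eif4e3, a further eIF4E paralog, averaged 359 ± 20.3 CPM in knockout and 510 ± 110 CPM in wildtype with no overlap (log2 fold change -0.51, adjusted p = 0.0873, and -0.32 with 0.00226 without wildtype replicate 1). Without wildtype replicate 1, 18 of the 53 were called (34.0%), 8 higher and 10 lower, where 34.4% of all tested genes were called.

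Read counting limits some of these values. Near-identical transcripts (at least 95% identical over at least 300 bases) exist elsewhere in the annotation for 15 of the 37 genes, mostly as pseudogenes, and 7 of the 37 overlap another counted gene. The other overlaps are Eif3m with Ccdc73, Eif5 with Snora28, Eif5b with Rev1 and Eif5a with Gps2. The fewest counts of any of the 37 mRNAs in a library were 58.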

How the data were processed

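RNA of pools of about 10 GV oocytes was sequenced single-end, per the labels' protocols, from SMARTer cDNA and NexteraXT libraries. The deposited files hold raw counts per Entrez gene, which the authors made with STAR 2.7.11a and featureCounts 2.0.3 on GRCm38.p6 (mm10), per the submitters' processing notes. Annotation, strand setting and treatment of multi-mapping reads: not given in the sources used here. No molecular identifiers are described. Genotype and replicate number came from the labels.

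Of 27179 identifiers, 25275 were named from a RefSeq table and 18 from GENCODE M21, and 1886 stayed unnamed. Genes kept by filterByExpr (minimum count 10) were scaled by TMM and compared in 1 fit of all 6 libraries by the quasi-likelihood F test of edgeR 4.0.16 (R 4.3.3), with Benjamini-Hochberg adjustment over 14957 genes and a threshold of 0.05. SE is the absolute log2 fold change over the square root of F, and intervals use its t distribution. CPM are computed from the counts with TMM-adjusted library sizes. A count of 1 was worth between 0.0258 and 0.0445 CPM. Lengths are of the longest protein-coding GENCODE M21 transcript. The procedure was tested on simulated counts. By the chi-square of counts, no pair of libraries of the same genotype agreed within sampling noise (4.37 to 158 per degree of freedom). Pairs across genotypes were not compared in this way.

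Alternatives were other scalings, filters, DESeq2 1.42.0, limma-voom (limma 3.58.1) with and without quality weights, a replicate block, and each library left out. Values in every library are given for each mRNA called with all 6 libraries or without wildtype replicate 1, for the highest and the most changed of each class, and for paralog pairs. Others are named by class, some with values chosen after they were seen. The genes, lists and alternatives were chosen with earlier results of these data known.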

Additional observations from a re-analysis of the deposited data

How the results depend on the processing

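Pools labelled as biological replicates number 3 per genotype, so wildtype replicate 1 weighs heavily. The count of initiation factor mRNAs called was 1 under each other scaling and filter and with limma-voom, 2 with DESeq2 (Eif2b5 and Eif4h), 10 with limma-voom and quality weights, and between 0 and 11 with a library left out. With the replicate number as a block it was 0 (4 at an unadjusted p under 0.05, edgeR), and all tested genes gave 537 calls. Deviations of same-numbered libraries from their genotype's mean correlated at -0.0583, 0.00997 and -0.0935, and 0 of 6 libraries correlated best with their own number. Wildtype replicate 1 stood apart and so shaped the deviations of all 3 wildtype libraries. These correlations therefore cannot decide whether the numbers pair the samples. Calls over all genes were 1038 with the stricter filter, 5950 with quality weights, and between 357 and 5199 with a library left out. The other genes of translation gave 5 calls with DESeq2 (9.09% of 55, against 11.7% of all genes with a count). With quality weights they gave 20 (37.7% of 53, against 39.8% of all tested genes). With a library left out they gave between 2 and 18 (3.77% to 34.0%, against 2.35% to 34.4% of all tested genes).

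Eif4h kept its direction under all alternatives, with log2 fold changes between 0.45 and 0.71 with a library left out and 0.60 with the block (adjusted p = 0.102). With quality weights the sign turned for Eif3k (0.15), Eif4g2 (-0.09), Eif4ebp2 (0.11), Pabpc1 (0.21) and Pabpc1l (-0.09). With a library left out, the values ran between -0.31 and 0.17 for Eif3k, -0.09 and 0.25 for Eif4g2, -0.09 and 0.14 for Eif4ebp2, -0.84 and 0.32 for Pabpc1 and -0.01 and 0.32 for Pabpc1l. The turns came without wildtype replicate 1, or for Eif4ebp2 also without knockout replicate 3 and for Pabpc1l without knockout replicate 1. The cause was not tested. The log2 ratio of the summed level of the 37 mRNAs, -0.01, moved by less than the spread of the libraries with library totals (-0.02), with mean transcript lengths (-0.00) and with each library left out (-0.04 to 0.03).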
